A study of Mus musculus with 12 samples.

Results

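The mitochondrial ribosomal protein genes are nuclear genes for the protein subunits of the ribosome inside mitochondria. They were taken as the protein-coding rows of the liver count table whose symbol starts with Mrpl or Mrps followed by a digit, and 78 of 55421 genes in the table met that rule, 49 with an Mrpl symbol and 29 with an Mrps symbol. By the role of the protein, 51 belong to the large subunit and 26 to the small subunit, since Mrps30 and Mrps18a carry a small-subunit symbol but sit in the large subunit. Mrps36 stood apart because its product is now known as a component of the 2-oxoglutarate dehydrogenase complex. Of the other 77, 45 have a counterpart in the bacterial ribosome and 32 occur in mitochondria and not in bacteria. The genes lie on 17 chromosomes.

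The mitochondrial ribosome makes the few proteins encoded by mitochondrial DNA, all of them subunits of the respiratory chain and ATP synthase. Its RNAs are transcribed from mitochondrial DNA, whereas its proteins are encoded in the nucleus, made in the cytosol and imported, so that assembly draws on both genomes. In liver, whose hepatocytes are rich in mitochondria, the nuclear regulators NRF1, the ETS factor GABP (NRF2) and YY1, with PGC-1 family coactivators, are known to act on promoters of genes of this kind.

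The livers came from wild-type (WT) mice that all carried tumours of E0771, a mouse mammary carcinoma line, grown in a mammary fat pad, and were taken on day 21. The groups were mice housed at 6 °C, 22 °C and 29 °C in climate chambers, with food and water freely available, after 1 week of acclimatisation, and each group held 4 libraries, numbered 1 to 4 at 6 °C, 5 to 8 at 22 °C and 9 to 12 at 29 °C. No tumour-free mice entered these groups, so every value describes a tumour-bearing host. The labels mention Balb/C and C57Bl6/J hosts without giving the strain of each library, and they do not say that each library is a separate animal. P-values then measure no more than how far these libraries lie from each other.

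Promoter sequences are shown for 4 members, whose mean level was lowest at 29 °C (Mrpl34 and Mrps21) or 22 °C (Mrps24 and Mrpl12). They are the 250 bases before the RefSeq transcript start (GRCm38.p6), on the gene's own strand: chr8:71464676-71464925 (plus strand) for Mrpl34, chr3:95871515-95871764 (minus strand) for Mrps21, chr11:5707702-5707951 (minus strand) for Mrps24 and chr11:120484387-120484636 (plus strand) for Mrpl12. Capitals mark the letters of an NRF1 motif (GCGCA and GCGC with any 1 base between them, on either strand) in Mrps21 and Mrpl12 and of an ETS motif (CCGGAAG, either strand) in Mrpl34.
Mrpl34: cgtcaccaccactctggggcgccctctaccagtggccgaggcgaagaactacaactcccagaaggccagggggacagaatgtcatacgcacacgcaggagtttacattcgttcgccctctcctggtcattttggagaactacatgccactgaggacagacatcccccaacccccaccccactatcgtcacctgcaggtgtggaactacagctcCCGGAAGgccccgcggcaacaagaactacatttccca
Mrps21: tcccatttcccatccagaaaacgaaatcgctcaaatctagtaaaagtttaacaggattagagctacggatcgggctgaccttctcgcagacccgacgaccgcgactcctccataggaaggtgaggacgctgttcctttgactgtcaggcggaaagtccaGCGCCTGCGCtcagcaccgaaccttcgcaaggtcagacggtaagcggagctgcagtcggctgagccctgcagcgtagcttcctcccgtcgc
Mrps24: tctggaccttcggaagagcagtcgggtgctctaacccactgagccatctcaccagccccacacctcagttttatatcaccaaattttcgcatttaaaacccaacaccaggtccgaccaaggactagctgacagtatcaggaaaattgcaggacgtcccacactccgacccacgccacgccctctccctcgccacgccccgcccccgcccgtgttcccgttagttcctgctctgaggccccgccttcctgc
Mrpl12: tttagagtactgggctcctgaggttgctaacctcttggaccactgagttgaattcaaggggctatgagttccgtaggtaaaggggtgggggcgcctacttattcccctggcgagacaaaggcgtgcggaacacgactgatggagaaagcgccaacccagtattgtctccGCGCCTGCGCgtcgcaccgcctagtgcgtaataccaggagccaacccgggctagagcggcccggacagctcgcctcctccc
The ETS letters of Mrpl34 began 37 bases before the start. The NRF1 letters began 91 bases before the start in Mrps21 and 81 bases before it in Mrpl12. Mrps21 also held ETS letters that began 18 bases downstream of its start. The Mrps24 stretch held none of the 3 motifs searched, and its YY1 letters (AAGATGGC, either strand) began 36 bases downstream of the start. A match of letters is a description and not a bound site.

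Over windows of 300 bases, from 250 before to 50 after the start, RefSeq gave 75 windows for 69 members and none for the other 9. NRF1 letters stood in 17.3% of the member windows against 6.63% of 20259 windows of protein-coding genes. ETS letters stood in 34.7% against 11.9%, and YY1 letters in 16% against 3.09%. At least 1 of the 3 motifs was present in 57.3% of member windows and 19.4% of protein-coding windows, with a median GC content of 58.7% and 57%. Matches of different motifs were counted separately, and 4 member windows held both NRF1 and ETS letters. Of the 69 members with a window, 26 had none of the 3.

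A close neighbour on the other strand was more frequent among the members than among protein-coding genes at large. A protein-coding gene on the other strand started within 1000 bp of the start of 33 of 78 members (42.3%), against 10.8% of 21456 protein-coding genes in GENCODE. Mrps11 and Mrpl46 start 412 bp from each other, a pair in which both genes are members. Other partners act in mitochondria too: Sars2, the mitochondrial seryl-tRNA synthetase, starts 172 bp from Mrps12, Twnk, the mitochondrial DNA helicase, 779 bp from Mrpl43, and the complex I genes Ndufs6 and Ndufb5 29 bp from Mrpl36 and 615 bp from Mrpl47. Fau, which encodes a cytosolic ribosomal protein, starts 59 bp from Mrpl49.

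**Figure D1:**
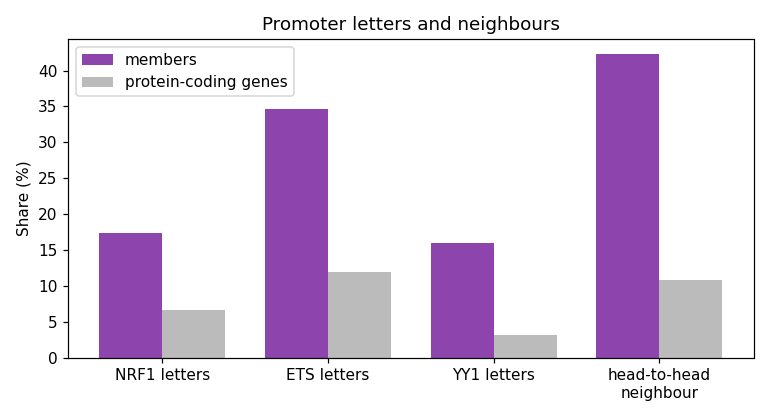
Bars give the share (%, from 0) of the 75 member promoter windows and of the 20259 windows of protein-coding genes that hold NRF1, ETS or YY1 letters, and, at the right, the share of 78 members and 21456 protein-coding genes with a neighbour on the other strand that starts within 1000 bp. The member bar is the taller of the pair in each case, with ETS letters at 34.7% against 11.9% and a neighbour at 42.3% against 10.8%.

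Total counts ran from 7615585 to 19001126 per library. The hepatocyte markers were all detected, at a summed 74037 to 185430 CPM (counts scaled to the library's size), so the tissue label was matched by its markers. 4 libraries stood apart from the rest and crossed the groups: library 1 at 6 °C, libraries 7 and 8 at 22 °C and library 9 at 29 °C held 11.8 to 17.1 CPM of H2-Ea-ps, a major histocompatibility gene, and the other 8 held 0 counts of it. Libraries 3, 5 and 6 were low in Gm26917, an RNA related to ribosomal RNA, at 1.66%, 0.667% and 0.605% of counts, against 4.03% to 8.70% in the other 9. The labels do not tie the H2-Ea-ps split to the Balb/C and C57Bl6/J hosts, so in every value adjusted for the split, host strain and other differences between these libraries cannot be told apart. The summed levels and the medians over members are also given without each of these sets.

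The 76 members that passed the filter on low counts had a median level of 14.1 CPM (range 1.07 to 42.8), close to the 12.5 CPM of all 15006 genes tested. Per length of exon, the highest were Mrpl52, a subunit found in mitochondria and not in bacteria, at 39.1 RPKM (counts scaled to library size and exon length), Mrpl34 at 33.4 and Mrpl12 at 32.5 RPKM. The lowest were Mrps33 at 0.694, Mrps25 at 1.26 and Mrpl23 at 1.67 RPKM. These are levels of RNA and not of protein. The exons of Mrps25 are covered over 69.8% of their length by Nr2c2 on the other strand, and since the use of strand in counting is not known, reads of the pair cannot be told apart.

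The coefficient of variation of the tested members over the 12 libraries had a median of 20.4%, against 27.8% for all genes tested. The median was 23.1% for the 2458 tested genes between the quartiles of the members' level (9.64 to 19.96 CPM), a narrower range than that of the members themselves. Among the members the coefficient was lowest in Mrpl4 (10.8%) and Mrpl28 (10.8%) and highest in Mrpl34 (54.1%). In 41 of 76 members the highest library was less than 2 times the lowest, and in 7 it was at least 3 times.

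The members that failed the filter were Mrpl53 and Mrps36. Mrpl53 had 0 counts in 11 libraries and 6 counts in library 12, and 88.0% of its exon bases are covered on the same strand by Gm42688, which had 13 to 27 counts. Its listed level is therefore uncertain. Mrps36 had 1 to 18 counts, with 18 in library 3. With so few counts neither was read further.

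Summed over all members, the level was 1350 ± 102 CPM at 6 °C, 1187 ± 78.7 CPM at 22 °C and 1167 ± 78.8 CPM at 29 °C (SD, n = 4 each). The 6 °C libraries ran from 1227 to 1476 CPM, those at 22 °C from 1103 to 1254 and those at 29 °C from 1099 to 1258. The ranges overlapped through library 1, the lowest at 6 °C. The ratio of the summed large to the summed small subunit was 2.27 ± 0.0316 at 6 °C, 2.32 ± 0.0434 at 22 °C and 2.37 ± 0.0575 at 29 °C, and all 4 libraries at 29 °C (2.33 to 2.46) lay above all 4 at 6 °C (2.23 to 2.31). Without the H2-Ea-ps libraries the sums averaged 1391 CPM at 6 °C (n = 3), 1254 at 22 °C (n = 2) and 1189 at 29 °C (n = 3), and the ratios 2.25, 2.34 and 2.34. Without the libraries low in Gm26917 the sums averaged 1350.1 (n = 3), 1120 (n = 2) and 1167 CPM (n = 4), and the ratios 2.26, 2.30 and 2.37. The mean level was highest at 6 °C for 47 of 76 tested members, at 22 °C for 25 and at 29 °C for 4. Library 4 alone held the highest level of 23 members. In bulk tissue, fewer cells of a type and less RNA per cell cannot be told apart.

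**Figure D2:**
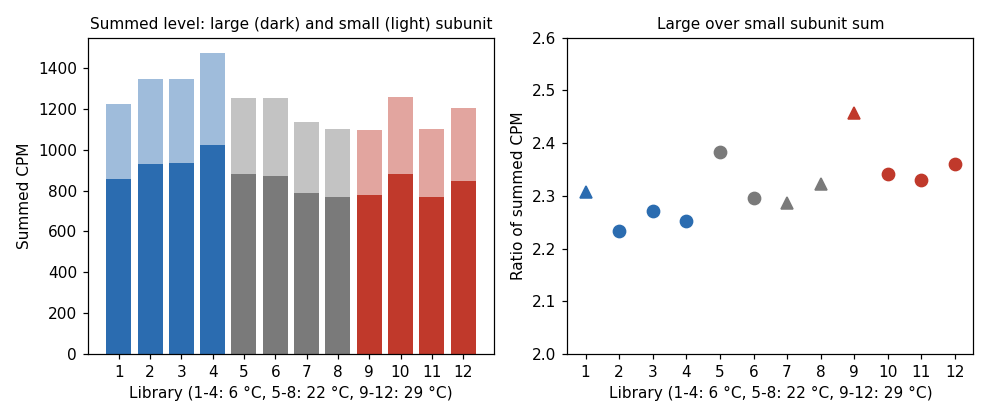
The left panel stacks the summed CPM of large-subunit (dark) and small-subunit (light) members in each of 12 libraries, from 0, and the right panel plots the ratio of the sums (axis from 2 to 2.6, triangles for the libraries with H2-Ea-ps counts). Library 4 at 6 °C has the highest sum (1476 CPM), and the 4 ratios at 29 °C lie above the 4 at 6 °C.

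The first comparison set the warmest against the coldest housing. No member passed the test between 29 °C and 6 °C (edgeR quasi-likelihood test, Benjamini-Hochberg adjusted p under 0.05 over 15006 genes), where 2.53% of all genes tested passed. DESeq2 called 1 member, Mrps21, with 7.96% of its genes called. At an unadjusted p under 0.05 there were 9 members, all lower at 29 °C (11.8%), against 19.4% of all genes in both directions, 9.61% lower and 9.8% higher. The fold changes leaned one way all the same: 70 of 76 members were below 0 (92.1% against 49.9% of all genes), with a median log2 fold change of -0.22 against 0.0005. The lean held in both subunits, with medians of -0.18 in the large and -0.26 in the small one, and in members with and without a bacterial counterpart (-0.23 and -0.21). With the 4 H2-Ea-ps libraries left out the median was -0.26 with 66 of 76 below 0, and without the 3 libraries low in Gm26917 it was -0.23 with 69 of 76. Leaving out any 1 library gave medians from -0.25 to -0.17, with 59 members below 0 without library 11. All 5 neutrophil markers were detected and summed to 21.1 to 425 CPM at 6 °C, 198 to 689 at 22 °C and 233 to 983 at 29 °C, and library 11 reached 407 CPM of the 6 intestinal markers, against 8.12 to 23.3 CPM over the libraries at 6 °C and 22 °C. Their part in these values was not tested.

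**Figure D3:**
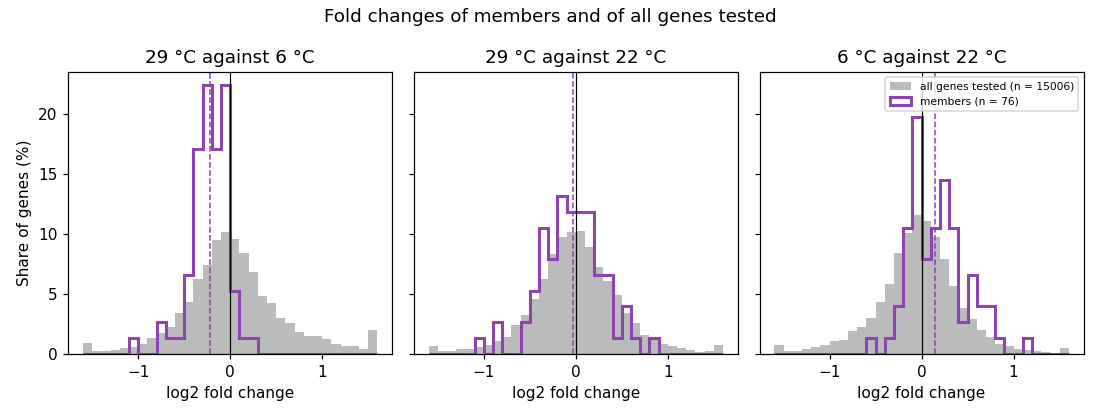
Histograms give the share (%) of all 15006 genes tested (grey) and of the 76 tested members (purple outline) by log2 fold change, in steps of 0.1, for the 3 comparisons, and a dashed line marks the members' median. Values past the ends are put in the last step. At 29 °C against 6 °C the members lie left of 0 (median -0.22), whereas at 29 °C against 22 °C they straddle it (-0.03).

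The large-subunit protein Mrpl34 (ENSMUSG00000034880.7, chr8:71464959-71465747 in GRCm38, as for the other genes placed here) had the lowest fold change of the list at 29 °C. Its level was 13.3, 26.7, 31.2 and 25.8 CPM in libraries 1 to 4 (6 °C), 38.9, 36.9, 12.8 and 10.1 CPM in libraries 5 to 8 (22 °C) and 9.57, 15.01, 10.3 and 12.6 CPM in libraries 9 to 12 (29 °C). At 6 °C library 1 was low and overlapped with 29 °C, and at 22 °C libraries 5 and 6 were about 3 times as high as libraries 7 and 8. The log2 fold change at 29 °C against 6 °C was -1.03 (SE 0.42, edgeR adjusted p = 0.199). With the H2-Ea-ps split as a term in the model it was -0.97 (adjusted p = 0.0101), past the threshold.

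The small-subunit protein Mrps21 (ENSMUSG00000054312.6, chr3:95862634-95871519) did not overlap between the coldest and the warmest group. It measured 7.71, 9.70, 10.6 and 9.03 CPM in libraries 1 to 4, 12.5, 12.7, 5.94 and 8.21 CPM in libraries 5 to 8 and 5.32, 6.31, 5.43 and 4.61 CPM in libraries 9 to 12. All 4 libraries at 29 °C were below all 4 at 6 °C, and only library 7 at 22 °C fell within the 29 °C range. The log2 fold change was -0.77 (SE 0.25, edgeR adjusted p = 0.108), and -0.76 (adjusted p = 0.0244) with the split term.

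Mrps33, a small-subunit protein absent from bacteria, had a log2 fold change of -0.79 (SE 0.51, edgeR adjusted p = 0.427), from 3 to 27 counts per library, and its groups overlapped. Mrpl15, a large-subunit protein at the core of the bacterial ribosome as well, measured 42.3, 34.4, 36.9 and 40.4 CPM in libraries 1 to 4, 36.3, 39.9, 29.4 and 34.6 CPM in libraries 5 to 8 and 36.7, 26.1, 27.2 and 33.1 CPM in libraries 9 to 12. The 6 °C and 29 °C groups overlapped through library 9. Its log2 fold change was -0.32 (SE 0.14, edgeR adjusted p = 0.237).

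At the other end, Mrpl33 (0.22, adjusted p = 0.672), Mrpl19 (0.11, 0.814) and Mrpl48 (0.08, 0.918), all of the large subunit, had the highest log2 fold changes at 29 °C against 6 °C, and none passed. The sign of Mrpl48 turned without library 1 (-0.03) and that of Mrpl19 without library 9 (-0.01). A processed pseudogene, Mrpl48-ps, had 19, 33, 17 and 23 counts in libraries 1, 7, 8 and 9 and 0 to 5 in the others, so reads of Mrpl48 may be split between the copies. Gcfc2 on the other strand covers 36% of the exon length of Mrpl19.

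The groups did not overlap in 8 members, each lower at 29 °C: Mrps2, Mrps21, Mrps17, Mrpl55, Mrpl45, Mrpl13, Mrpl40 and Mrpl39. This is 10.5% of members, against 6.74% of all genes, and no member was higher without overlap, against 6.56%. Mrps17, a small-subunit protein with a bacterial counterpart, was named after its values were seen. It averaged 32.2 ± 1.84 CPM in the 6 °C libraries, against 25.7 ± 1.11 CPM in those at 29 °C (SD, n = 4 each). Its log2 fold change was -0.33 (SE 0.13, edgeR adjusted p = 0.178). Mrps27, a pentatricopeptide repeat protein of the small subunit, was named after its values were seen, because it passed with the split term, and 6430562O15Rik on the other strand covers 24.2% of its exon length. It measured 15.1, 32.97, 32.97 and 30.5 CPM in libraries 1 to 4, 22.3, 22.2, 13.7 and 15.2 CPM in libraries 5 to 8 and 12.5, 20.4, 18.4 and 18.1 CPM in libraries 9 to 12. Library 1 lay far below libraries 2 to 4. The log2 fold change was -0.68 (SE 0.25, edgeR adjusted p = 0.161), and -0.65 (adjusted p = 0.00640) with the split term.

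With the split term, 3 members were called lower at 29 °C than at 6 °C (Mrpl34, Mrps21 and Mrps27), or 3.95% against 6.23% of all genes called lower in that fit. Among the 8 libraries lacking H2-Ea-ps counts the same 3 members were called (3.95% against 9.91% of all genes in both directions). In the fit of the 8 libraries at 6 °C and 29 °C alone Mrpl34 was called (-1.04, adjusted p = 0.0484), with 3.52% of all genes. Without library 1, Mrps27 was called (-0.89, adjusted p = 0.0486), with 1.97% of all genes.

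**Figure D4:**
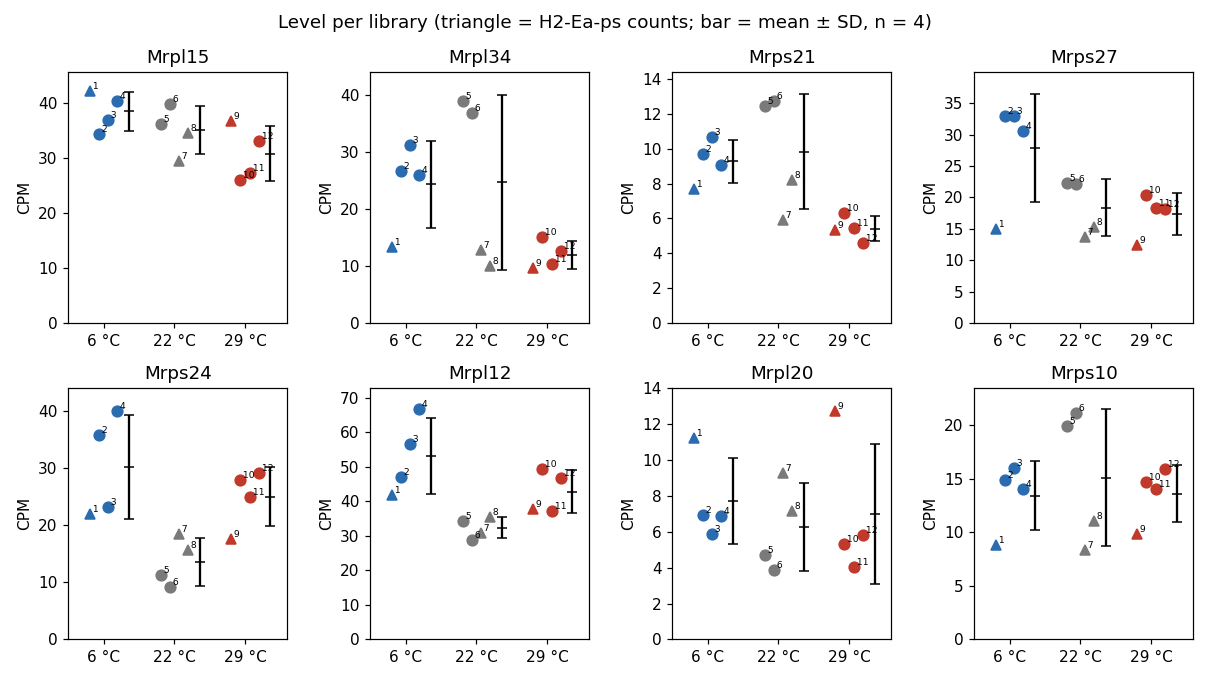
Each panel plots 1 member's CPM in the 12 libraries (numbered points, coloured by housing temperature), with triangles for the libraries with H2-Ea-ps counts and black bars for mean ± SD (n = 4). Mrpl34 and Mrps21 are low in all libraries at 29 °C, Mrps24 and Mrpl12 are lowest at 22 °C, and Mrpl20 and Mrps10 follow the H2-Ea-ps libraries, upward and downward, at each temperature.

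The second comparison, 29 °C against 22 °C, shares the 29 °C libraries with the first. Members fell to both sides of 0, with 42 of 76 below it (55.3% against 50.4% of all genes) and a median of -0.03 against -0.0037. No member passed with edgeR, where 0% of all genes did, and none with DESeq2, where 2.17% did. At an unadjusted p under 0.05 there were 5 higher and 9 lower members (6.58% and 11.8%), against 7.58% and 7.35% of all genes. The lowest were Mrpl34 at -1.05 (SE 0.42, edgeR adjusted p = 0.286), Mrpl22, a protein that lines the exit tunnel, at -0.90 (adjusted p = 0.271), and Mrps21 at -0.85 (adjusted p = 0.191). The highest were Mrps24, which lies at the mRNA entry of the small subunit, at 0.87 (adjusted p = 0.193), Mrpl36 at 0.69 (0.295) and Mrpl10, at the base of the factor-binding stalk, at 0.52 (0.244).

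Mrpl22 showed what libraries 5 and 6 add to this comparison. It reached 12.8, 13.04, 5.56 and 4.78 CPM in libraries 5 to 8 and 3.70, 5.97, 5.08 and 4.54 CPM in libraries 9 to 12. Libraries 7 and 8 lay within the 29 °C range, and libraries 5 and 6 were more than 2 times as high as either. Without the 3 libraries low in Gm26917, which include both, the log2 fold change of Mrpl22 was -0.10 and that of Mrpl34 turned to 0.05. In that fit Mrps21 was at -0.38, Mrps24 at 0.55, Mrpl36 at 0.27 and Mrpl10 at 0.23. The median over members was -0.01 there, with 39 of 76 below 0.

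Mrpl36, whose gene starts 29 bp from that of the complex I subunit Ndufs6, ran the other way. It reached 4.34, 5.50, 10.8 and 9.11 CPM in libraries 5 to 8 and 12.96, 11.5, 11.8 and 11.9 CPM in libraries 9 to 12, and libraries 5 and 6 were the lowest. The groups did not overlap for Mrpl36 and Mrpl12, both higher at 29 °C (2.63% against 3.89% of all genes), nor for Mrps17, which was lower (1.32% against 3.79%). With the split term, Mrps21, Mrpl34 and Mrpl22 were called lower at 29 °C than at 22 °C, the last at -0.995 (adjusted p = 0.0488), against 1.88% of all genes. Among the 8 libraries lacking H2-Ea-ps counts, where 22 °C is represented by libraries 5 and 6 alone, 16 members were called (21.1% against 17.1% of all genes), 40 of 76 were below 0 and the median was -0.13.

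The third comparison, 6 °C against 22 °C, shares its groups with the other two. The members were on balance above 0, with 48 of 76 (63.2% against 47.5% of all genes) and a median of 0.14 against -0.02, and the median was 0.15 in the large and 0.11 in the small subunit. No member passed with edgeR, where 0.0333% of all genes did. DESeq2 called 2, Mrps24 and Mrpl12, among 74 members with an adjusted p (1.41% of its genes). At an unadjusted p under 0.05 there were 15 members, all higher at 6 °C (19.7%), against 6.8% of all genes higher and 5.11% lower. With the split term no member passed either (0.193% of all genes higher and 0.173% lower). No member was lower without overlap (2.81% of all genes), and the groups did not overlap in 6 members that were higher at 6 °C (7.89% against 3.53% of all genes): Mrps12, Mrpl23, Mrps24, Mrpl12, Mrpl13 and Mrpl40.

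Mrps24 (ENSMUSG00000020477.10, chr11:5703983-5715680) had the highest fold change. It measured 21.9, 35.8, 23.1 and 39.98 CPM in libraries 1 to 4, 11.3, 9.17, 18.5 and 15.6 CPM in libraries 5 to 8 and 17.7, 27.98, 24.96 and 29.2 CPM in libraries 9 to 12. Every library at 6 °C lay above every library at 22 °C, and libraries 5 and 6 were the lowest of the 12. The log2 fold change at 6 °C against 22 °C was 1.14 (SE 0.26, edgeR adjusted p = 0.204), and with DESeq2 it was 1.15, adjusted p = 0.00824. Over 15.4% of its exon length Mrps24 shares bases with Urgcp on the same strand, so reads there cannot be assigned to 1 gene.

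Mrpl12 (ENSMUSG00000039640.7, chr11:120484613-120489065), the counterpart of the bacterial stalk protein that recruits translation factors, was also lowest at 22 °C. It measured 41.9, 47.1, 56.6 and 66.8 CPM in libraries 1 to 4, 34.3, 28.8, 30.97 and 35.6 CPM in libraries 5 to 8 and 37.8, 49.5, 37.2 and 46.8 CPM in libraries 9 to 12. The 22 °C libraries lay below all others in both groups, without a gap between libraries 5 and 6 and libraries 7 and 8. The log2 fold change at 6 °C against 22 °C was 0.71 (SE 0.16, edgeR adjusted p = 0.202), and with DESeq2 it was 0.72, adjusted p = 0.0165. Gm16755 on the other strand covers 13.1% of its exon length.

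Mrps12, the counterpart of the decoding-centre protein S12, averaged 16.8 ± 3.99 CPM at 6 °C, against 9.28 ± 0.887 CPM at 22 °C (SD, n = 4 each). The log2 fold change was 0.85 (SE 0.27, edgeR adjusted p = 0.278). Mrpl23, a tunnel-exit protein with 11 to 27 counts per library, was at 0.74 (SE 0.31, edgeR adjusted p = 0.368). The lowest fold changes were those of Mrpl22 at -0.57, Mrps25 at -0.31 and Mrpl32 at -0.26, with adjusted p of 0.519, 0.615 and 0.733. Without the 3 libraries low in Gm26917, Mrpl22 and Mrpl32 turned to 0.02 and 0.08. Mrpl15 was at 0.14 (SE 0.14, edgeR adjusted p = 0.745) and turned to -0.04 among the libraries lacking H2-Ea-ps counts. The median over members was 0.16 there, with 9 members called (11.8% against 6.69% of all genes). Members below 0 numbered 28 with all libraries, 29 without those with H2-Ea-ps counts, 20 without library 5, 18 without library 6 and 8 without the 3 libraries low in Gm26917, where the median was 0.21.

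Within 22 °C, libraries 5 and 6 differed from libraries 7 and 8 in many members, as they did in many of all genes tested. Both lay above both in 28 members (36.8% against 30% of all genes) and below both in 20 (26.3% against 33.2%). In the plot of members by library, Mrpl34, Mrpl22, Mrpl48 and Mrps10 head the former and Mrps14, Mrpl36 and Mrpl20 the latter. Mrps14, a small-subunit protein named after its values were seen, stood at 4.34, 5.91, 15.5 and 17.02 CPM in libraries 5 to 8. The log2 ratio of libraries 5 and 6 to 7 and 8 was set against GC content of the longest transcript and against exon length. Across the 76 members Spearman rho was -0.14 and 0.08, and across all genes with a value -0.26 and 0.06. Genes within 1 library share its depth and composition, so these are descriptions.

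**Figure D5:**
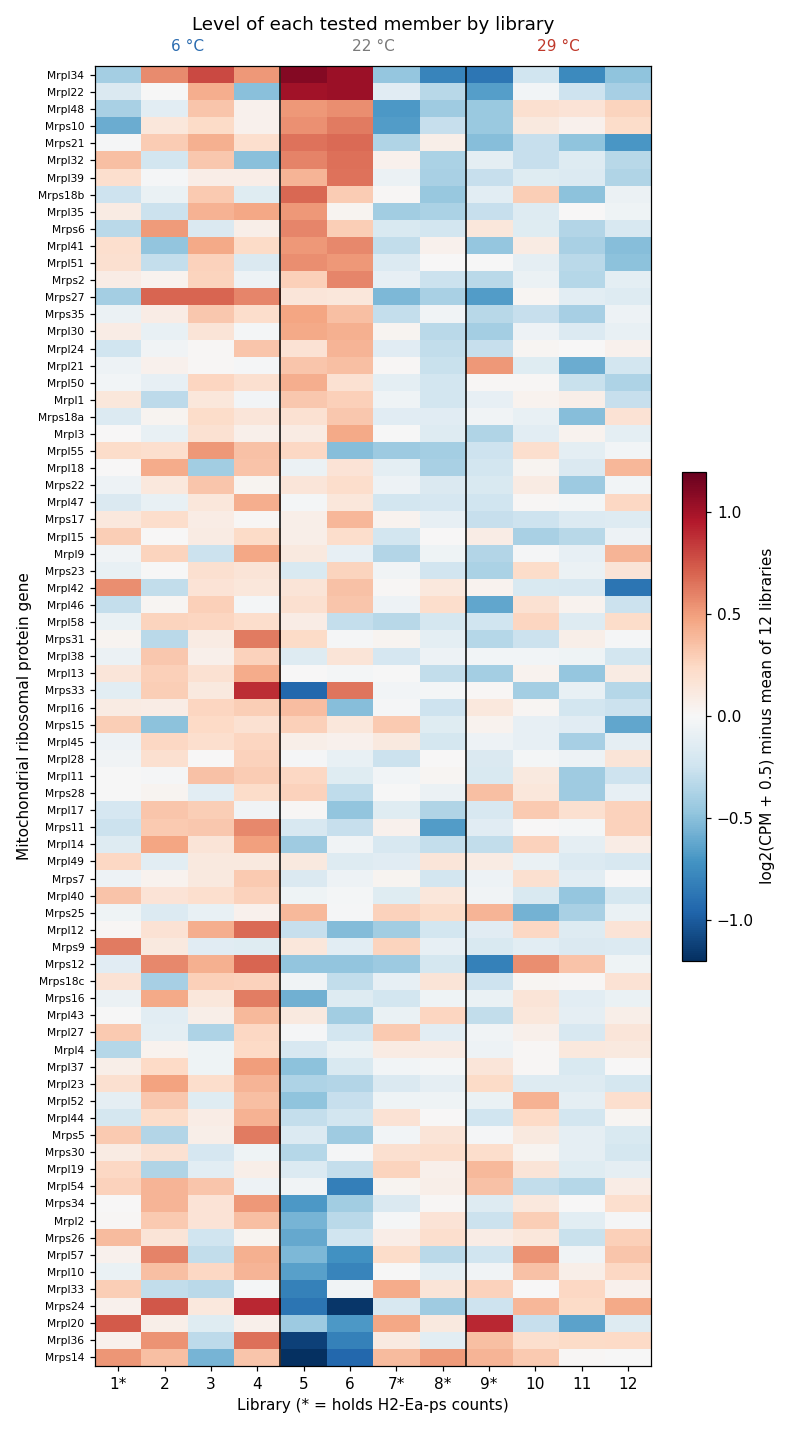
Rows are the 76 tested members, ordered by the ratio of libraries 5 and 6 to libraries 7 and 8, columns are the 12 libraries by temperature, and the colour gives log2(CPM + 0.5) minus the member's mean over all libraries (red higher, blue lower). Libraries 5 and 6 hold the strongest colours at both ends, where the order of the rows places them. Libraries 2 to 4 at 6 °C are red over most of the list (median deviations 0.10, 0.16 and 0.24), while that of library 1 is 0.0024.

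In the model that holds both the temperature and the H2-Ea-ps split, 9 members were called for the split. At the same temperature, the 4 libraries with H2-Ea-ps counts were higher than the 8 others in 3 members, Mrpl20, Mrps14 and Mrpl33, and lower in 6, Mrpl34, Mrps10, Mrpl48, Mrps27, Mrpl22 and Mrpl24 (adjusted p under 0.05, against 11.2% of all genes higher and 11.4% lower). Libraries 3, 5 and 6, low in Gm26917, all lack H2-Ea-ps counts, so at 22 °C the splits cannot be told apart. Mrps14 was at 7.87, 4.34 and 5.91 CPM in them, against 11.8 to 15.3 CPM in the other libraries without H2-Ea-ps counts. Mrpl22 was at 12.8 and 13.04 CPM in libraries 5 and 6, against 4.18 to 8.50 CPM in the others without H2-Ea-ps counts. Mrpl20 and Mrps10 were named after their values were seen. Mrpl20, a large-subunit protein, was at 11.2, 9.26, 7.17 and 12.7 CPM in libraries 1, 7, 8 and 9 and between 3.87 and 6.91 CPM in the other 8. These sets did not overlap, and the split coefficient was 1.02 (SE 0.17, edgeR adjusted p = 0.000728). Mrps10, a small-subunit protein, was at 8.79, 8.30, 11.1 and 9.80 CPM in libraries 1, 7, 8 and 9 and between 14.04 and 21.1 CPM in the others, also without overlap, with a split coefficient of -0.84 (SE 0.14, edgeR adjusted p = 0.000644). That of Mrps27 was -0.75 (SE 0.13, edgeR adjusted p = 0.000602) and that of Mrpl34 -1.13 (SE 0.20, edgeR adjusted p = 0.000905). Without regard to temperature, the sets did not overlap in 2 members that were higher (Mrps14 and Mrpl20, against 4.6% of all genes) and 5 that were lower (Mrpl47, Mrpl24, Mrpl48, Mrps27 and Mrps10, against 4.78%). The RNAs of the mitochondrial ribosome, mt-Rnr1 and mt-Rnr2, took 0.662% to 2.27% of counts in those 4 libraries and 0.0668% to 0.342% in the others. The protocol depletes ribosomal RNA, so these shares also hold what the depletion left.

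5 further subunits have symbols outside the rule: Dap3, a GTP-binding protein, Ptcd3, Chchd1 and Aurkaip1 of the small subunit, and Gadd45gip1 of the large one. None passed in any comparison with edgeR or DESeq2. In the 3 comparisons, in the order above, 2.53%, 0% and 0.0333% of all genes passed with edgeR. DESeq2 called 7.96%, 2.17% and 1.41% of its genes. An unadjusted p under 0.05 was found for 1 of the 5, at 6 °C against 22 °C (11.9% of all genes). All 5 were below 0 at 29 °C against 6 °C (49.9% of all genes), with a median log2 fold change of -0.24. They ran from -0.55 in Chchd1 to -0.19 in Ptcd3. At 6 °C against 22 °C all 5 were above 0 (47.5% of all genes, median 0.29). At 29 °C against 22 °C, 3 were below 0 (50.4% of all genes) and 2 above it (median -0.09). Chchd1 measured 10.01, 6.65, 9.14 and 8.36 CPM in libraries 1 to 4 and 5.79, 5.46, 5.69 and 6.44 CPM in libraries 9 to 12, without overlap. Its log2 fold change was -0.55 (SE 0.28, edgeR adjusted p = 0.303). In 6.74% of all genes the 29 °C group was lower than the 6 °C group without overlap.

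The rest of the mitochondrial translation machinery was read in lists chosen with earlier results of these data known. At 29 °C against 6 °C none of these genes passed with edgeR without the split term, where 2.53% of all genes did. Of all genes, 19.4% had an unadjusted p under 0.05, and DESeq2 called 7.96% of its genes. With the split term 6.23% of all genes were called lower. None of 14 translation factors passed with edgeR at 29 °C against 6 °C, and 13 of 14 were below 0 (median -0.22), with 4 at an unadjusted p under 0.05 and 1 called by DESeq2. With the split term Gfm1 and Gfm2, elongation factors for translocation and ribosome recycling, and Taco1, a translational activator of the complex IV subunit I, were called lower, Gfm1 at -0.49 (adjusted p = 0.0134). Of 20 genes for tRNA charging none passed with edgeR or DESeq2, 3 had an unadjusted p under 0.05 and 14 were below 0 (median -0.14). With the split term 2 were called lower, among them Gatb, a subunit of the amidotransferase that forms glutaminyl-tRNA, at -0.46 (adjusted p = 0.0425). Of 24 genes for assembly of the mitochondrial ribosome none passed and 16 were below 0 (median -0.19), with 8 at an unadjusted p under 0.05 and 2 called by DESeq2, and with the split term the GTPase Gtpbp10, Mettl17 and the rRNA methyltransferase Tfb1m were called lower. Of 12 tested genes for expression of mitochondrial DNA none passed and 9 were below 0 (median -0.24), with 2 at an unadjusted p under 0.05, 1 called by DESeq2 and 1 called lower with the split term.

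Among 9 nuclear regulators, 1 passed with edgeR at 29 °C against 6 °C, where 2.53% of all genes did. The fold change was above 0 in 5 regulators and below 0 in 4 (49.9% of all genes). At an unadjusted p under 0.05 there were 5, against 19.4% of all genes, and DESeq2 called 3, against 7.96% of its genes. With the split term 1 regulator was called higher and 3 lower, Ppargc1a and Ppargc1b among the latter, against 949 higher and 935 lower of 15006 genes. Pprc1, the PGC-1-related coactivator, measured 32.05, 23.3, 21.1 and 15.1 CPM in libraries 1 to 4, 32.9, 30.2, 41.1 and 34.4 CPM in libraries 5 to 8 and 52.01, 50.6, 46.5 and 58.3 CPM in libraries 9 to 12. Every library at 29 °C lay above every other library. Its log2 fold change at 29 °C against 6 °C was 1.18 (SE 0.19, edgeR adjusted p = 0.0145). Its relatives Ppargc1a and Ppargc1b, named after their values were seen, had log2 fold changes of -0.80 (SE 0.21, edgeR adjusted p = 0.0606) and -1.02 (SE 0.27, edgeR adjusted p = 0.0588), and with the split term -0.83 (adjusted p = 0.0130) and -1.04 (adjusted p = 0.0142). Nrf1 was at 0.33 (SE 0.15, edgeR adjusted p = 0.237).

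Related gene groups set the members in context. At 29 °C against 6 °C the median log2 fold change was 0.29 over 74 tested cytosolic ribosomal protein genes, with 59 above 0 and 0 called, or 3 called higher with the split term. Over 79 nuclear subunits of oxidative phosphorylation it was -0.46, with 74 below 0 and 5 called lower, or 27 with the split term. Of 13 mRNAs of mitochondrial DNA, the templates of the mitochondrial ribosome, only 7 passed the filter on low counts. Over these 7 it was -0.89, with all 7 below 0 and 0 called, or 1 lower with the split term. At an unadjusted p under 0.05 there were 6, 39 and 2 genes of these groups, against 19.4% of all genes. DESeq2 called 1, 15 and 0, against 7.96% of its genes. Of all genes 2.53% passed with edgeR, and with the split term 949 of 15006 were called higher and 935 lower. At 29 °C against 22 °C the median was -1.28 over the 7 mRNAs of mitochondrial DNA and -0.03 over the members. At 6 °C against 22 °C it was -0.41 and 0.14. The difference between the members and each group was not tested.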

How the data were processed

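Per the labels' protocols, libraries were made from liver total RNA depleted of ribosomal RNA. The authors deposited raw counts per gene in 1 table. The build GRCm38 and the tools STAR 2.6.1a, bcl2fastq and DESeq2 1.44.0 are listed, without roles, in the submitters' processing notes. How reads were counted, and whether by strand, is not given in the sources used here. Counts of all 12 libraries were tested with edgeR 4.0.16 in R 4.3.3 (filterByExpr, TMM scaling, robust quasi-likelihood fit of 3 group means, 9 residual degrees of freedom, two-sided, Benjamini-Hochberg adjustment over 15006 genes, threshold 0.05, with no minimum fold). The common biological coefficient of variation was 0.321. CPM use TMM-scaled library sizes, except for H2-Ea-ps, which is given per total count, on which 3 counts are 0.158 to 0.394 CPM. RPKM use the union of exons of GENCODE vM21 basic transcripts, matched by identifier for all 78 members and 98.65% of genes. Standard errors are the absolute log2 fold change over the square root of the F statistic. DESeq2 1.42.0, other scalings and filters, left-out libraries and a term for the H2-Ea-ps libraries (at least 1 CPM) were alternatives. The rule named Mrpl15, the 3 members at each end of each comparison, the 3 highest and lowest in RPKM, untested members, the 5 subunits with other symbols and called regulators. Mrps17, Mrps27, Mrps14, Mrpl20 and Mrps10 were named outside it, after their values were seen. The members and lists were chosen with earlier results of these data known. No replicate pair agreed within sampling noise. The test was checked on simulated counts. Results for 1 gene of the tRNA charging list are not reported here.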

Additional observations from a re-analysis of the deposited data

Results flagged for a closer look

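In 3 of 75 groups of 4 libraries, 1 library lay far from the other 3, with a gap over the group's range above Dixon's 95% critical value, and chance gives about 1 in 20 such groups. Mrpl23 at 29 °C was 1.93 CPM in library 9 against 1.29 to 1.36 CPM in the others. Mrps12 at 22 °C was 10.6 CPM in library 8 against 8.76 to 9.003 CPM. Dap3 at 29 °C was 26.4 CPM in library 11 against 30.4 to 31.2 CPM.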

How the results depend on the processing

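Over 21 alternatives (12 of them leaving out 1 library), 22 results for single genes gave 461 values, of which 436 kept their direction and side of the threshold, 19 newly passed it, none lost it and 6 changed sign. In the edgeR fit of all 12 libraries without the split term only Pprc1 had passed, so no other result could lose it. The sign changes were Mrpl48 without library 1 and Mrpl19 without library 9 (ranges with 1 library left out -0.0329 to 0.225 and -0.0066 to 0.222) at 29 °C against 6 °C, Mrpl34 (0.0549) at 29 °C against 22 °C and Mrpl22 (0.017) and Mrpl32 (0.0844) at 6 °C against 22 °C without the 3 libraries lowest in Gm26917, and Mrpl15 (-0.0414) at 6 °C against 22 °C without the H2-Ea-ps libraries. All genes called at 29 °C against 6 °C numbered 379, and 1178 with DESeq2, 1884 with the split term, 1504 without the H2-Ea-ps libraries, 134 without the 3 Gm26917-low libraries and 41 to 439 with 1 library left out (67, 47, 211, 41, 71 and 149 without libraries 3, 4, 9, 10, 11 and 12). At 29 °C against 22 °C the count was 0, and 15 with no low-count filter, 310 with DESeq2, 516 with the split term, 2594 without the H2-Ea-ps libraries and 0 to 78 with 1 library left out (3 without library 7, 78 without library 9). At 6 °C against 22 °C it was 5, and 165 with DESeq2, 3 in the 8 libraries compared, 55 with the split term, 1015 without the H2-Ea-ps libraries, 0 without the Gm26917-low libraries and 3 to 7 with 1 library left out (3 without each of libraries 2, 5, 6, 8, 10 and 11). Members called at 29 °C against 6 °C were 0, and 1 with DESeq2, 1 in the 8 libraries compared, 3 with the split term, 3 without the H2-Ea-ps libraries and 0 to 1 (without library 1) with 1 library left out. At 29 °C against 22 °C they were 3 with the split term and 16 without the H2-Ea-ps libraries, and at 6 °C against 22 °C 2 with DESeq2 and 9 without the H2-Ea-ps libraries. The median at 29 °C against 22 °C moved to -0.13 without the H2-Ea-ps libraries. The cause was not tested. No paired analysis was possible because the library numbers, 1 to 12, are not shared between groups. Where leaving out libraries left 22 °C with libraries 7 and 8 or 5 and 6 alone, the test rests on 2 libraries.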
